A study of Mus musculus with 170 samples.

Results

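The 6 genes Tbx1, Tbx2, Tbx3, Tbx5, Tbx20 and Isl1 encode transcription factors that pattern the embryonic heart, and they are 6 of the 40549 gene rows of a table of TPM values (transcript abundance corrected for transcript length and set to a common sum per cell) from single heart cells. They were chosen by name for what is known of them in heart development, without a threshold on any measured value. Earlier results of these data were known when they were chosen. The cells came from the ventricular part of mouse hearts at embryonic day 9.5 (E9.5), C57BL/6 background, and each was picked by hand and sequenced with Smart-seq2. The table holds 143 cells, 74 from control hearts (35 in sequencing batch 1 and 39 in batch 2) and 69 from Dgcr8 conditional knockout (cKO) hearts (35 and 34). Control hearts, labelled wild type, carried Dgcr8 loxP/loxP and the Rosa26 mT/mG/+ reporter and no Cre, and cKO hearts carried the same alleles together with Mesp1Cre/+. All cells of both genotypes therefore had floxed Dgcr8. Cre driven from Mesp1 acts in early mesoderm progenitors, and the reporter was used by the authors to keep cKO cells that descend from them, whereas control cells were not limited to that lineage. No embryo, litter or culture is named in the labels, so each genotype is 1 sample, no test was run, and the spreads given are across cells.

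T-box factors bind DNA through a shared domain and divide the heart tube into regions. Tbx5 and Tbx20 act with Nkx2-5 and Gata4 to switch on the genes of working chamber muscle. Tbx2 and Tbx3 bind the same sites but repress the chamber genes, which keeps the atrioventricular canal, part of the outflow tract and the conduction system in a more primitive state. Isl1, a LIM-homeodomain factor, and Tbx1 mark the second heart field, the progenitors in pharyngeal mesoderm that add cells to both poles of the tube and lose Isl1 as they become muscle. Dgcr8 is the RNA-binding partner of Drosha and is needed to cut most microRNAs (miRNAs) out of their primary transcripts.

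Cells were grouped by clustering on 55 cell type markers, none of them among the 6 genes. Because the markers were the input, their levels name a cluster and give no separate support for the name. A cluster of 97 cells carried all 15 cardiomyocyte markers among the genes higher in it than in the rest, and its cells are called cardiomyocyte-like (CM-like). It held 29 of 74 control cells (39.2%, exact 95% interval 28 to 51.2%, 21 from batch 1 and 8 from batch 2) and 68 of 69 cKO cells (98.6%, 92.2 to 100%, 34 from each batch). The other control cells were 22 endothelial-like, 13 epicardial-like, 5 erythroid-like and 5 unnamed cells, and the remaining cKO cell was unnamed. The comparison between genotypes could therefore be made only in CM-like cells, and the comparison between classes only in control cells. The shares describe picked cells and not the make-up of the hearts. The authors state that control cardiomyocytes tended to stay in clusters while cKO ones came apart more easily, so more cKO ones were picked. The control CM-like cells are those that came apart, and the effect on the comparisons was not tested. A control CM-like cell had a median of 8857 genes with a TPM above 0 and a cKO CM-like cell 8553, which is the only measure of depth the table gives.

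Values that differ between the genotypes as a whole stand beside every comparison below. On the log2(TPM + 1) scale, the targeted gene Dgcr8 was 2.40 ± 2.86 (SD across 29 cells) in control and 1.64 ± 2.45 (68 cells) in cKO CM-like cells, a difference of -0.77 (-0.24 in batch 1 and -1.06 in batch 2). Xist, the RNA that coats the inactive X chromosome, was 4.48 higher and the Y-linked Ddx3y 2.74 lower in cKO cells, so genotype and the sex of the embryos cannot be told apart. The mitochondrial share of TPM had a median of 6.42% in control and 3.01% in cKO CM-like cells. The summed TPM of the 14 mesenchymal markers ranged, as log2, from 1.49 to 9.28 with a median of 7.28 in control, and from 3.91 to 11.03 with a median of 8.75 in cKO CM-like cells. For the 6 epicardial markers the medians were 2.82 and 5.05, for the 13 endothelial markers 2.28 and 2.23, and for the 7 erythroid markers 1.93 and 3.27. Within batch 2 all 3 were higher in control cells, at 5.20 against 4.93, 4.92 against 2.14 and 5.16 against 4.67. Their part in the differences described here was not tested.

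Across all 143 cells the factors fell into frequent and rare ones. Detected here means a TPM of 1 or more. Tbx20 was detected in 102 cells and Tbx5 in 74, whereas Tbx3 was detected in 28, Tbx2 in 17 and Isl1 in 16. Tbx1 was listed at 0 in every cell. Because TPM is per transcript length, the levels of different genes can be set side by side, and the highest TPM in any cell was 335 for Tbx20, 227 for Tbx5, 64 for Tbx3, 60.8 for Isl1 and 29.4 for Tbx2. For the first 3 and for Tbx2 that cell was a cKO CM-like cell, and for Isl1 it was a control endothelial-like cell. A TPM above 0 but below 1 was common for the chamber factors, in 46 cells for Tbx5 (median 0.286) and 27 for Tbx20 (median 0.179), so counts of detected cells depend on where the limit is set.

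Tbx5, on chromosome 5 (chr5:119832668-119885219, plus strand, GRCm38), was expressed in more than 1 in 2 CM-like cells of either genotype. In control CM-like cells its TPM ran from 0 through a median of 2.76 to 99.1, and in cKO CM-like cells from 0 through 20.3 to 227. The ranges overlapped over their whole lower part, and cells at 0 were present in both genotypes. Mean log2(TPM + 1) was 2.62 ± 2.36 (SD, 29 cells) in control and 3.67 ± 2.68 (68 cells) in cKO cells, a difference of 1.05. Within batch 1 the difference was 0.39 and within batch 2 it was 0.93, so the mean of the within-batch values, 0.66, was smaller than the pooled one. The pooled value also carried the make-up of the groups, since 8 of 29 control but 34 of 68 cKO CM-like cells came from batch 2, where Tbx5 was higher in both genotypes.

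A gene was counted as higher or lower when the pooled difference was at least 1 log2 unit and had the same sign in both batches. By that rule cKO CM-like cells were higher for 1127 of 15102 genes (7.46%) and lower for 649 (4.30%). Tbx5 was the only member among them, 1 of the 5 that passed the filter of a TPM above 0 in more than 10 of the CM-like cells, and its difference lay at the 91.9th percentile of the genes tested. The median difference of all genes tested was 0.10 pooled, 0.24 in batch 1 and -0.20 in batch 2. Tbx5 fell below 1 log2 unit under 5 of 11 alternative settings, and it was above 0 under all of them. The authors reported the opposite direction for Tbx5, lower in cKO hearts at E9.5 by quantitative PCR. That measure took dissected hearts with all their cells, not picked ventricular CM-like cells, and the gap was not tested.

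Tbx20, on chromosome 9 (chr9:24718138-24774303, minus strand), encodes the chamber factor that is also needed for valve and endocardial development. It was the factor found in most cells. Its TPM ran from 0 through a median of 25.3 to 136 in control and from 0 through 41.8 to 335 in cKO CM-like cells, so the groups overlapped throughout. The mean log2(TPM + 1) was 3.95 ± 2.31 in control and 4.61 ± 2.43 in cKO cells, a difference of 0.66 (0.39 in batch 1 and 0.50 in batch 2) that was smaller than the SD across cells. It did not reach 1 log2 unit, it was 0.24 among cells with at least 6000 detected genes, and it turned to -0.20 when clusters were made from the most variable genes.

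**Figure D1:**
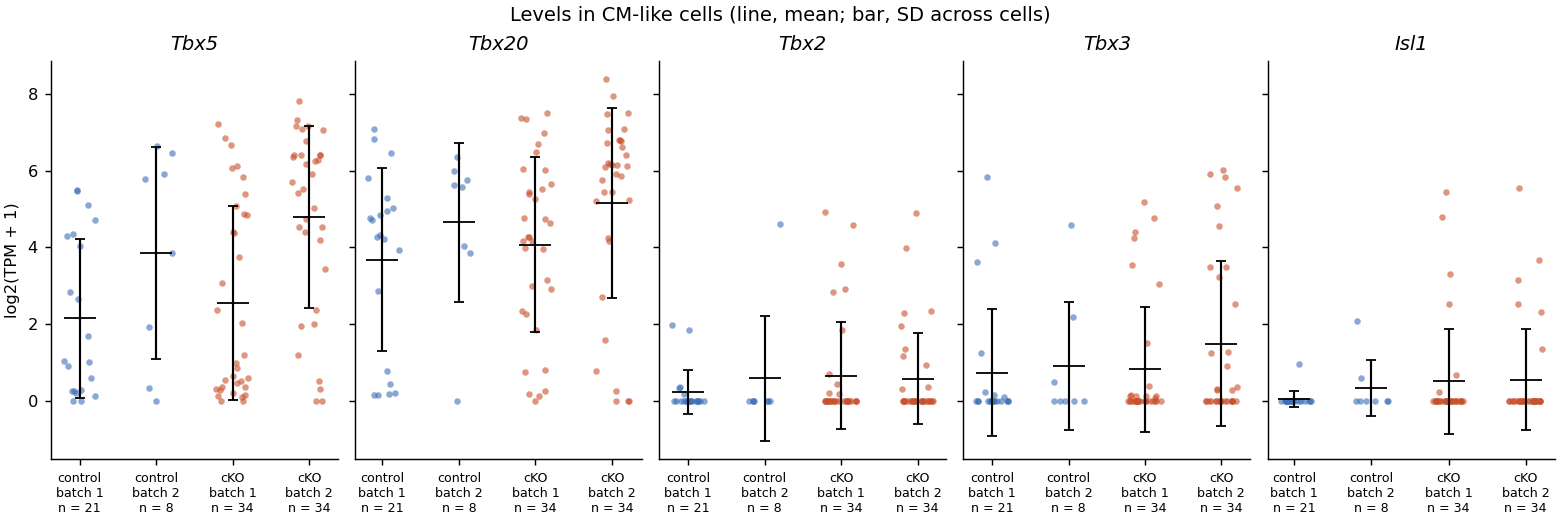
Level of each factor as log2(TPM + 1) in every CM-like cell, by genotype and sequencing batch. Each point is a cell, the horizontal line is the mean and the bar is the SD across cells. Tbx5 and Tbx20 spread from near 0 to above 5 in all groups, with higher means in batch 2, and most cells sit at 0 for Tbx2, Tbx3 and Isl1.

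The repressors Tbx2 and Tbx3 were at 0 in most CM-like cells. Tbx2, on chromosome 11 (chr11:85832551-85841948, plus strand), was detected in 3 of 29 control cells, at TPM 2.56, 2.94 and 23.3, and in 13 of 68 cKO cells, at 2.61, 6.19, 6.54, 10.9, 23 and 29.4 in batch 1 and 1.22, 1.55, 2.83, 3.88, 4.06, 14.7 and 29 in batch 2. The levels of the positive cells overlapped, and cKO cells lay both below and above the control ones. The mean was 0.32 ± 0.96 in control and 0.61 ± 1.29 in cKO cells on the log2(TPM + 1) scale, a difference of 0.29 (0.43 in batch 1 and -0.0011 in batch 2). In batch 2 the means were 0.58 and 0.57, where the control mean rests on 1 of 8 cells and the other 7 were at 0.

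Tbx3 lies next to Tbx5 on chromosome 5 (chr5:119670669-119684724, plus strand). It was detected in 6 of 29 control CM-like cells, at TPM 1.36, 11.4, 16.2 and 56 in batch 1 and 3.54 and 22.9 in batch 2. Among 68 cKO cells, 7 of batch 1 had it at 1.84 to 35.2 and 12 of batch 2 at 1.38 to 64. Positive cells of the genotypes again overlapped in level. The mean log2(TPM + 1) was 0.78 ± 1.63 in control and 1.15 ± 1.93 in cKO cells, a difference of 0.37 (0.09 and 0.57 in batches 1 and 2).

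Isl1 and Tbx1, the second heart field factors, were the least often detected in control CM-like cells. Isl1, on chromosome 13 (chr13:116298281-116309689, minus strand), was detected in 1 of 29, a batch 2 cell at TPM 3.18. It was detected in 10 of 68 cKO CM-like cells, at 4.74, 8.89, 26.6 and 42.7 in batch 1 and 1.56, 3.92, 4.70, 7.81, 11.8 and 45.5 in batch 2. Of those cKO cells, 9 lay above the single positive control cell. The mean was 0.12 ± 0.43 in control and 0.52 ± 1.33 in cKO cells on the log2(TPM + 1) scale, a difference of 0.40 (0.45 in batch 1 and 0.21 in batch 2). Quantitative PCR of dissected hearts by the authors gave the opposite direction for Isl1, lower in cKO. Tbx1, on chromosome 16 (chr16:18580979-18590671, minus strand), was listed at 0 in both genotypes, and no fold is given.

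The shares of detected cells carried the uncertainty of small counts. Tbx5 was detected in 17 of 29 control CM-like cells (58.6%, exact 95% interval 38.9 to 76.5%) and 47 of 68 cKO cells (69.1%, 56.7 to 79.8%), and Tbx20 in 22 (75.9%, 56.5 to 89.7%) and 57 (83.8%, 72.9 to 91.6%). Shares for Tbx2 were 10.3% (2.19 to 27.4%) and 19.1% (10.6 to 30.5%), and for Tbx3 20.7% (7.99 to 39.7%) and 27.9% (17.7 to 40.1%). Shares for Isl1 were 3.45% (0.0873 to 17.8%) and 14.7% (7.28 to 25.4%). For each of the 5 factors the pooled share was higher in cKO cells and the intervals of the genotypes overlapped. The direction turned within a batch for both chamber factors, since the batch 1 shares of Tbx5 were 52.4% in control and 50% in cKO cells and the batch 2 shares of Tbx20 were 87.5% and 85.3%. The intervals cover counting error only, because amplified reads without molecular identifiers are not independent molecules and cells of 1 genotype are not replicates.

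**Figure D2:**
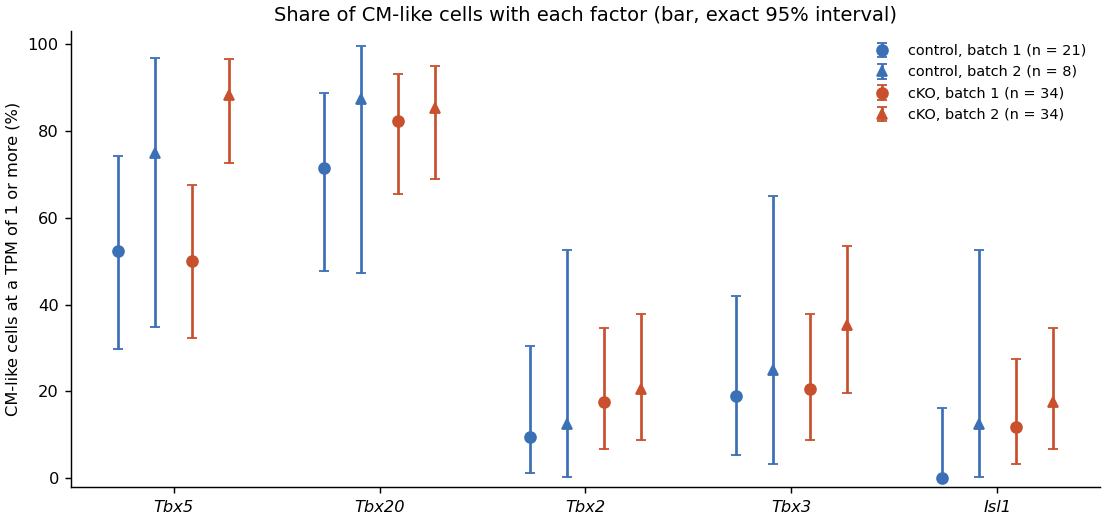
Percentage of CM-like cells with each factor at a TPM of 1 or more, by genotype and batch. The bar is the exact (Clopper-Pearson) 95% interval. Intervals of control and cKO cells overlap for every factor within each batch, and Tbx5 is detected in 17 of 34 cKO cells of batch 1 and 30 of 34 of batch 2.

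Tbx5 differed more between the sequencing batches than between the genotypes. In cKO CM-like cells the mean of Tbx5 was 2.55 ± 2.53 in batch 1 (34 cells, median TPM 1.14) and 4.79 ± 2.37 in batch 2 (34 cells, median 48.3), 2.25 higher in batch 2, at the 99.9th percentile of all genes tested. In control cells it was 2.15 ± 2.07 (21 cells) and 3.86 ± 2.77 (8 cells), 1.71 higher and at the 87.7th percentile. Of 15102 genes, 232 (1.54%) were higher in batch 2 by at least 1 log2 unit in both genotypes, and Tbx5 was the only member among them. Tbx20 was 0.97 higher in batch 2 among control and 1.08 among cKO cells. The median number of detected genes moved the opposite way between batches in the genotypes, from 8456 to 9704 in control and from 9798 to 7765 in cKO CM-like cells. What differs between the batches beyond sequencing, such as the embryos or the level of dissection, is not stated in the labels.

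To see where each factor is expressed in the normal heart, control CM-like cells were compared with the other 45 control cells. Tbx5 was 2.62 ± 2.36 in CM-like and 0.80 ± 1.14 in other cells, 1.82 higher (1.35 in batch 1 and 3.06 in batch 2), at the 98.0th percentile of 14517 genes tested. The means ran from CM-like cells through 1.57 in erythroid-like, 1.05 in epicardial-like and 0.58 in endothelial-like to 0.35 in unnamed cells. Each neighbouring pair in that order differed by less than the SD across cells of the higher class. Detection followed in 17 of 29 CM-like, 2 of 5 erythroid-like, 5 of 13 epicardial-like, 3 of 22 endothelial-like and 0 of 5 unnamed cells. Of all genes tested, 825 (5.68%) were higher in CM-like cells by the same rule and 1639 (11.3%) lower, and Tbx5 and Tbx20 were the members among the higher ones.

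Tbx20 was found in most classes of control cells. It was 3.95 ± 2.31 in CM-like and 2.57 ± 2.54 in other control cells, 1.38 higher pooled but 0.0042 in batch 1 and 2.58 in batch 2. The endothelial-like cells differed between the batches too. In batch 1, 6 of 7 of these had Tbx20 and the mean was 5.55 ± 2.57, above the CM-like mean of that batch (3.68 ± 2.38), and the highest cell reached TPM 250. In batch 2, 6 of 15 had it and the mean was 1.93 ± 2.22. Epicardial-like cells had a mean of 2.82 ± 2.06 (9 of 13 detected), and unnamed cells 0.26 ± 0.29 (0 of 5).

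The rare factors differed less between classes. Tbx3 was detected in 3 of 45 other control cells, 2 endothelial-like at TPM 37.8 and 7.72 and 1 erythroid-like at 7.38, and was 0.52 higher in CM-like cells (0.34 and 0.71 by batch). Tbx2 was detected in 1 endothelial-like cell at 5.89 and in no other cell outside the CM-like class. Neither was detected in any of 13 epicardial-like cells. Isl1 was the factor with the lower mean in CM-like cells, by -0.20 (-0.15 and -0.05 by batch), and it was detected in 3 endothelial-like cells, at 5.79, 3.17 and 60.8, and 2 epicardial-like cells, at 1.84 and 4.43. Tbx2 and Isl1 did not pass the filter of that comparison. The erythroid-like class, which should lack all 6 factors, had Tbx5 and Tbx20 in the same 2 cells, at TPM 5.91 and 14.4 in one and 16.4 and 47 in the other. The summed TPM of the cardiomyocyte markers was 62613 and 45238 in those 2 cells, against 44.1, 3312 and 6442 in the 3 cells without the factors. All 15 markers were detected in the 2 cells and also in 1 of the 3.

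**Figure D3:**
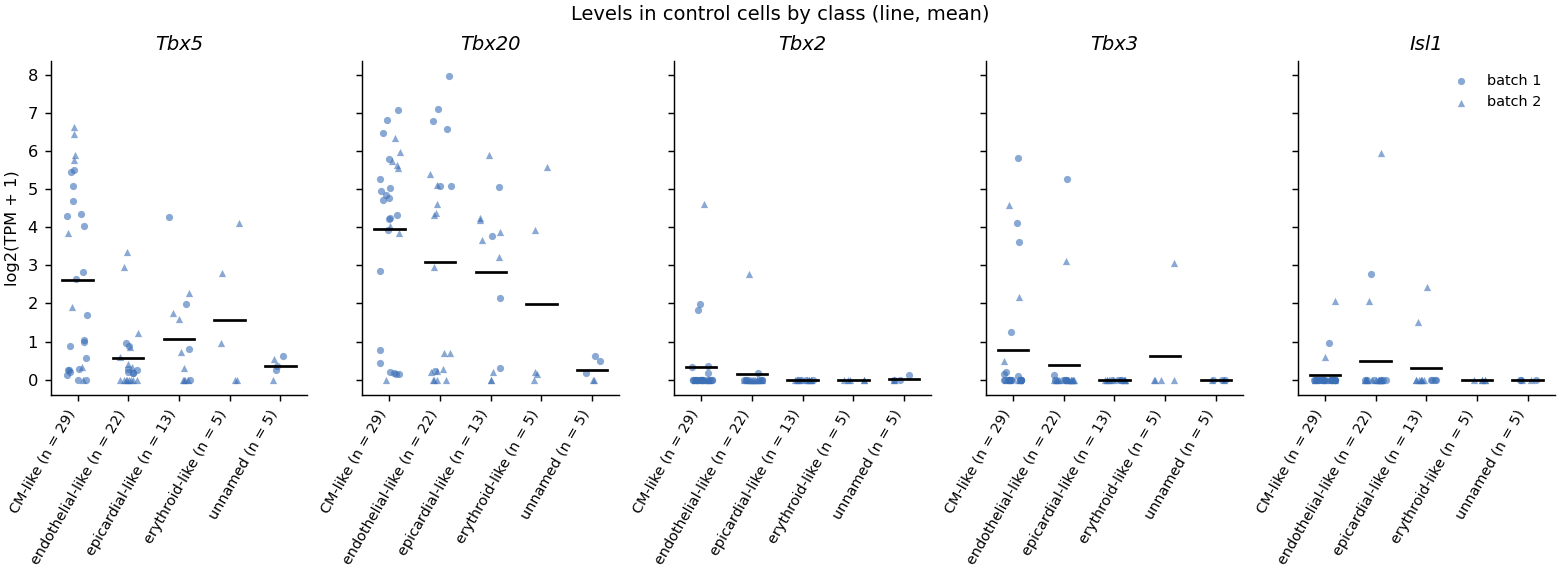
Level of each factor as log2(TPM + 1) in control cells of each class. Each point is a cell (circles for batch 1, triangles for batch 2) and the line is the class mean. Tbx5 is highest in CM-like cells with a mean of 2.62, and Tbx20 reaches as high in batch 1 endothelial-like cells as in CM-like cells.

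Chamber and non-chamber factors were found together in single cells. In control CM-like cells, 8 of 29 (27.6%, 12.7 to 47.2%) had at least 1 of Tbx5 and Tbx20 and at least 1 of Tbx2 and Tbx3, 5 of 21 in batch 1 and 3 of 8 in batch 2. In cKO CM-like cells there were 30 of 68 (44.1%, 32.1 to 56.7%), 13 of 34 and 17 of 34. The intervals overlapped. The product of the single shares was 23.8% in control and 41.5% in cKO cells, and both products lay within the intervals of the joint shares.

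No CM-like cell had a non-chamber factor without a chamber factor. All 8 control and all 30 cKO cells with Tbx2 or Tbx3 had Tbx5, Tbx20 or both, and only 4 of 29 control and 4 of 68 cKO cells had neither chamber factor, so few cells could have shown the opposite. Both chamber factors were present in 5 of the 8 control and 21 of the 30 cKO cells. Tbx3 was found with Tbx20 in 5 of 6 control and 18 of 19 cKO cells, and Tbx2 with Tbx5 in 2 of 3 and 11 of 13. The repressors themselves rarely met. Tbx2 and Tbx3 were together in 1 control and 2 cKO cells, where the product of their shares gives 0.621 and 3.63 cells.

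Isl1 was also seen beside the chamber factors. All 10 Isl1-positive cKO CM-like cells had Tbx5 or Tbx20, with Tbx20 in 9 and Tbx5 in 8, and 6 of them had Tbx2 or Tbx3. The 1 positive control cell had Tbx5, Tbx20 and Tbx3. Tbx5 and Tbx20 were detected together in 14 of 29 control (48.3%, product 44.5%) and 40 of 68 cKO cells (58.8%, product 57.9%). Across cells their levels had a Pearson correlation of 0.25 in control (n = 29) and 0.29 in cKO (n = 68), a description of cells that share hearts, batches and depth. No CM-like cell had more than 4 of the 6 factors, reached by 2 control and 7 cKO cells, and the number per cell had a correlation with the number of detected genes of 0.71 in control (0.62 in batch 1 and 0.87 in batch 2) and 0.15 in cKO cells (0.36 and 0.46).

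**Figure D4:**
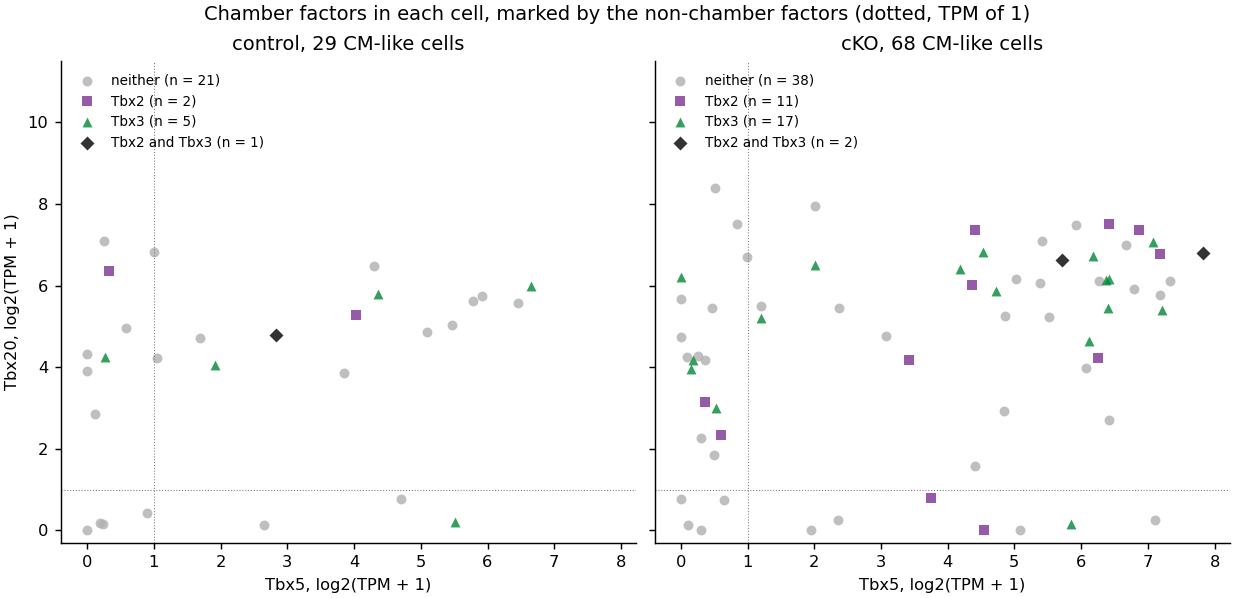
Tbx20 against Tbx5, both as log2(TPM + 1), in CM-like cells of each genotype. Each point is a cell, its marker shows whether Tbx2 or Tbx3 was at a TPM of 1 or more, and dotted lines mark that TPM. Every cell with Tbx2 or Tbx3 lies beyond at least 1 dotted line, 8 in control and 30 in cKO.

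The genes that the factors are known to switch on or off were then read in cells with and without each factor. Nppa, which encodes the atrial natriuretic peptide and is a chamber gene activated by Tbx5 and repressed by Tbx2 and Tbx3, was detected in all 29 control and 67 of 68 cKO CM-like cells. In cKO cells its median TPM was 1144 with Tbx5 detected (47 cells) and 71.7 without (21 cells). The mean log2 value was 2.28 higher with Tbx5 in cKO (2.74 in batch 1 and 0.69 in batch 2) and 1.73 higher in control cells (0.04 and 5.64). The control value came from batch 2, where 2 cells lacked Tbx5. With Tbx20 the genotypes parted, since Nppa was 1.97 lower in cKO cells with Tbx20 (57 cells) than in the 11 without, and 2.02 higher in control cells with it (22 cells) than in the 7 without. In control cells that value came from batch 2, where 1 cell lacked Tbx20 and the difference was 9.57, against -0.03 in batch 1.

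Nppa did not keep 1 direction with the repressors. In the 30 cKO cells with Tbx2 or Tbx3 it was 0.21 lower than in the 38 without, but 2.25 higher in batch 1 and 2.79 lower in batch 2, and in the 8 control cells with either it was 0.29 higher than in the 21 without (0.41 and -1.05). In cells with Tbx2, whether or not they had Tbx3, Nppa was 1.37 higher in cKO (3.45 and -0.57). Nppa was 0.76 lower in control cells with Tbx2 (-1.34, and -0.09 from 1 cell). With Tbx3 it was 1.27 lower in cKO cells (0.18 and -2.73) and 0.27 lower in control cells (-0.11 and -1.26).

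Gja5, the gap junction protein connexin 40 and a further chamber gene, was singled out from 72 pairs of a factor and a named gene after the values were seen. It was detected in 6 of 29 control CM-like cells (20.7%, 7.99 to 39.7%), at TPM 19.8 and 36.8 in batch 1 and 7.73, 10.0, 11.9 and 12.6 in batch 2. All 6 were among the 14 cells with both Tbx5 and Tbx20, and none was among the 15 others. The median number of detected genes was 9793 in the 14 cells and 7898 in the 15, and the part of this gap was not tested. None of the 6 had Tbx2, Tbx3 or Isl1 detected, although Tbx3 was listed at 0.407 in the cell with Gja5 at 7.73. The split depends on the detection limit. The cell with Gja5 at 19.8 had Tbx5 at 1.06, just past the limit, and Tbx3 at 0.157. Its mitochondrial share of TPM was 41.1%. No cKO cell (0 of 68) had Gja5, so the share may be as high as 4.41%, and 40 of these cells had both chamber factors. The difference between genotypes was -0.80 on the log2(TPM + 1) scale (-0.48 in batch 1 and -1.69 in batch 2).

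Bmp2, a signal of the atrioventricular canal that lies upstream of Tbx2 and Tbx3, was likewise picked after its values were seen. It was detected in 14 of 30 cKO CM-like cells with a non-chamber factor (46.7%, 28.3 to 65.7%) and in 4 of 38 without (10.5%, 2.94 to 24.8%). In batch 1 these were 6 of 13 and 1 of 21, and in batch 2 they were 8 of 17 and 3 of 17. Control cells had 4 of 8 (50%, 15.7 to 84.3%) and 2 of 21 (9.52%, 1.17 to 30.4%). The median number of detected genes was 8416 in cKO cells with and 8745 without a non-chamber factor, and 9529 and 8458 in control cells.

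The Nppa promoter is shown because it holds the known paired site of a T-box factor and Nkx2-5. The 250 bases before the RefSeq start (GRCm38.p6, chr4:148000472-148000721, plus strand) are printed with the T-box half-site and the NK element in capitals.
Nppa: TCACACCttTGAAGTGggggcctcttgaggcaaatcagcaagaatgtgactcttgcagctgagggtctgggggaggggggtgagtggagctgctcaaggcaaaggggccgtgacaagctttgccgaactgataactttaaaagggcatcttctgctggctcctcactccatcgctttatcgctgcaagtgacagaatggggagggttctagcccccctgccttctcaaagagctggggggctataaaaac
The T-box half-site GGTGTGA, sought on both strands, lay on the minus strand as TCACACC from 250 bases before the start, and the NK element TNAAGTG as TGAAGTG from 241 bases before it. In windows of the 250 bases before the start, the half-site was present in 1095 of 32851 promoters (3.33%) and the NK element in 3305 (10.1%). Of the 9 promoter entries of chamber programme genes, only that of Nppa held either. Only Tbx20, Tbx1 and Isl1 of the 6 factors had an entry, and neither set of letters was in their windows.

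The wider sets of genes around the factors differed unevenly between genotypes. Of 16 partner and cofactor genes tested, 3 were higher in cKO CM-like cells by the rule above, 0 lower, and the median difference was 0.40 (0.65 in batch 1 and -0.08 in batch 2). The 3 were the GATA factors, Gata4 at 1.70 (2.27 and 0.36 by batch), Gata6 at 1.11 (1.04 and 0.52) and Gata5 at 1.09 (0.62 and 1.76). For Gata4 the authors reported the opposite direction, lower in dissected cKO hearts by quantitative PCR. The partners that bind DNA with Tbx5 did not share one direction. Nkx2-5 was 0.89 higher pooled but 1.51 higher in batch 1 and 0.70 lower in batch 2, Mef2c was 0.49 higher (1.22 and -0.67), and Hand2 differed by -0.08.

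Of the 11 chamber programme genes, 2 were higher and 1 lower, and the median was -0.19 (-0.28 and -1.20). Nppb, the brain natriuretic peptide, was higher by 2.09 (1.38 and 2.38) and Atp2a2, the calcium pump of the sarcoplasmic reticulum, by 1.69 (1.39 and 2.31). Mycn, which drives growth of the ventricular wall, differed by -1.27 (-0.52 and -2.39), and Nppa by 0.12 (0.29 and -1.27). Among 11 tested genes of the atrioventricular canal, outflow tract and pacemaker (13 listed), 3 were higher and 0 lower, with a median of 0.38 (0.92 and 0.04). Tgfb2, a signal for cushion formation, was higher by 3.14 (3.25 and 2.97), the calcium channel gene Cacna1h by 1.60 (2.09 and 0.55) and Rspo3, a Wnt co-activator, by 1.31 (1.44 and 0.83). Bmp2 differed by 0.38, Bmp4 by 0.19 (0.92 and -0.72) and Hcn4, the pacemaker channel, by -0.10 (0.17 and -1.01), while Shox2 did not pass the filter.

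The genes that accompany Isl1 and Tbx1 gave fewer calls. Of 20 second heart field and pharyngeal genes 12 were tested, and Nr2f2, an atrial orphan receptor, was the 1 called, at 1.18 (0.52 and 1.67), with a median of 0.38 (0.48 and 0.15) for the list. Fgf10, an Isl1 target, differed by -0.10. Of 12 other T-box family genes 6 were tested with a median of 0.04, and 1, Mga, a T-box partner of Max, was higher by 1.27 (1.07 and 1.63). Tbx18 differed by 0.19 (0.52 and -0.54). Markers of neural crest, pharyngeal epithelium and neural tissue, 12 in number, were detected in 0 to 15 of the 143 cells each. Sox10, which defines neural crest, was detected in 1 cell and Foxd3 in 0, and the most frequent were Nkx2-1 in 15 (9 cKO and 0 control CM-like), Tfap2b in 10, Pax1 in 9 and Tfap2a in 8 (6 cKO and 0 control CM-like). The highest TPM of these 4 was 6.08, for Nkx2-1. They were the 4 that were tested, and none was called, at a median of 0.15. The share of genes called in these lists, in either direction, stands against 7.46% higher and 4.30% lower among all genes.

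**Figure D5:**
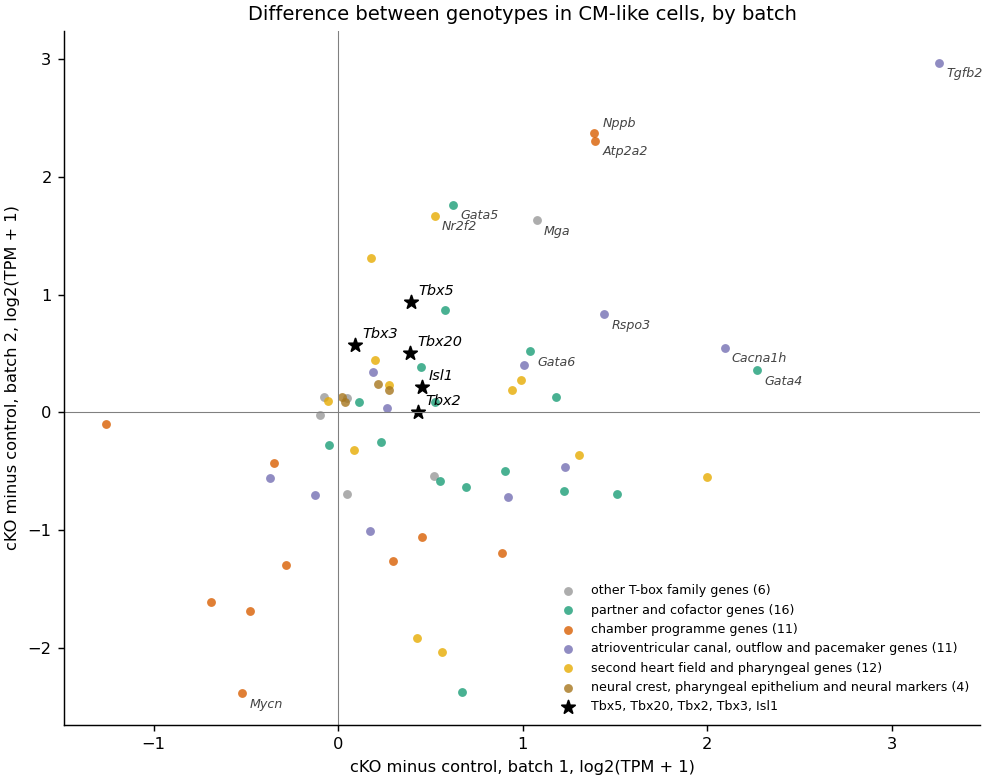
Difference between cKO and control CM-like cells, in log2(TPM + 1), in batch 1 (x axis) and batch 2 (y axis). Stars are the 5 factors with any detection, and points are genes of the 6 lists, named where they were at least 1 log2 unit apart pooled with the same sign in both batches. The stars sit between 0.09 and 0.45 on the x axis and between -0.0011 and 0.93 on the y axis.

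Nppa and Gata4 were also read by Isl1. In the 10 Isl1-positive cKO CM-like cells the median TPM of Nppa was 82.1, against 706 in the 58 others, and the mean log2 value was 1.82 lower (-1.71 in batch 1 and -2.14 in batch 2). Gata4 was 0.99 higher in them (1.03 and 1.00). These 2 were chosen after the values were seen.

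The genes whose pattern was most like that of a factor were sought across the 74 control cells, among 10799 candidates. For Tbx5 these were Emp2 (Pearson r 0.69), Unc45b (0.66), Neurl2 (0.65), Bmp7 (0.64) and Ppargc1a (0.63), and for Tbx20 they were Med19 (0.63), Jagn1 (0.59), Fbln1 (0.59), Ak1 (0.58) and Idh3a (0.58). All 5 genes most like Tbx5 had higher means in CM-like than in other control cells. The coefficients describe cells that share class, batch and depth. Within the 29 control CM-like cells they were 0.45 to 0.60 for Tbx5 and 0.55 to 0.78 for Tbx20. Across the 68 cKO CM-like cells the same genes had coefficients of -0.14 to 0.29 with Tbx5 and -0.04 to 0.26 with Tbx20. The genes were picked by their coefficients in the 74 control cells, which include the 29. Cells not used for the picking tend to give lower values for that reason alone, so the genotypes cannot be compared here. Tbx2, Tbx3 and Isl1 were detected in too few control cells for such a list.

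The miRNAs of the Mir17hg cluster are shown because Dgcr8 is needed to cut them from that transcript. Mir17hg (chr14:115042879-115046727, plus strand) was 3.48 higher in cKO CM-like cells (3.82 and 3.06 by batch), at the 99.9th percentile. Mature sequences are from RefSeq (GRCm38.p6), with the seed (bases 2 to 8) in capitals and grouped by seed.
miR-17-5p (chr14:115043684-115043706): cAAAGUGCuuacagugcagguag
miR-20a-5p (chr14:115044183-115044205): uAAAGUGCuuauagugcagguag
miR-18a-5p (chr14:115043867-115043889): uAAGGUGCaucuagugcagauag
miR-19a-3p (chr14:115044048-115044070): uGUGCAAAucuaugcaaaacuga
miR-19b-3p (chr14:115044358-115044380): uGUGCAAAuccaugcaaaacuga
miR-92a-3p (chr14:115044476-115044496): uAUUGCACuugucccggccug
The mature miRNAs themselves were not measured in these cells, since the libraries were made from polyadenylated RNA. The authors sequenced miRNAs of wild-type hearts at E9.5 separately, and miR-20a-5p and miR-92a-3p were on their list of abundant ones. Those counts were not used here.

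The 3′ untranslated regions of the 6 factors were searched on the transcript strand for the complements of these 4 seeds. The letters sought were GCACTTT for miR-17-5p and miR-20a-5p, GCACCTT for miR-18a-5p, TTTGCAC for both miR-19 forms, and GTGCAAT for miR-92a-3p. Only Tbx20 and Tbx3 held any, and the matched letters are printed in capitals with their surroundings.
Tbx20, miR-17-5p and miR-20a-5p (chr9:24718495-24718523, minus strand, 6940 bases after the stop): gtttgagaacaGCACTTTgcatctcttgt
Tbx20, miR-19a-3p and miR-19b-3p (chr9:24723488-24723516, minus strand, 1947 bases after the stop): agttttaggttTTTGCACttgatgttctc
Tbx20, miR-92a-3p (chr9:24720907-24720935, minus strand, 4528 bases after the stop): gttctgtttaaGTGCAATatatttatttc
Tbx3, miR-17-5p and miR-20a-5p (chr5:119683150-119683178, plus strand, 69 bases after the stop): aatctgccagtGCACTTTgttagatgtaa
The region of Tbx20 is 7314 bases long. It was set against the first 7314 bases of the 224 regions at least as long, its own included. Of these windows 39.7%, 47.3% and 29% held the 3 kinds of match. The region of Tbx3 has 1632 bases, and 14.6% of 6871 windows made in the same way held GCACTTT. No match was found in the 1732 bases of Tbx5, 934 of Tbx2, 1014 of Tbx1 or 1199 of Isl1, which says only that these letters are not there. Of the members beside their differences between genotypes, Tbx5 (1.05), Isl1 (0.40) and Tbx2 (0.29) held no match, Tbx20 (0.66) held 3 and Tbx3 (0.37) held 1.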

How the data were processed

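Single-cell transcriptomes were made by the authors with Smart-seq2 (poly(A)-primed, no molecular identifiers) and quantified with Salmon against mm10 with reporter sequences added; the Salmon version and annotation are not given in the sources used here. The deposited values are TPM, and the authors kept cells with over 70% of reads mapped and a reporter matching the genotype. TPM summed to between 996133 and 999999 per cell and keeps no sequencing depth. Of 170 labelled samples, 143 had a column, matched by title, and 27 samples were not analysed here. The columns all differed. All 143 cells were used, and doublets were not called because cells had been picked by hand.

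Values were analysed as log2(TPM + 1), where a fold understates the change of low genes, with Python 3.11.15, numpy 2.4.6, pandas 2.3.3 and scipy 1.17.1. Cells were clustered hierarchically on the 55 markers into 5 clusters, without the 6 members. A cluster was named from at least 3 markers that were at least 1 log2 unit higher in it than in the rest. Class differences in genes used for clustering are not results, and names were rebuilt here and may differ from the study's. No embryo is named, so cells were not tested, and differences are given pooled and by batch. Scripts were tested on simulated data. Intervals are exact Clopper-Pearson (95%), and a count of 0 was bounded by 3 cells.

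The members, lists and markers were chosen with earlier results of these data known. Named were all members, at most 5 called genes of largest difference per list, 12 fixed genes, the checks Dgcr8, Mir17hg and Xist, and the 5 genes most correlated with a member detected in at least 10 control cells, among genes detected in at least 15 of them. Ddx3y, and the pairs of Gja5, Bmp2, Nppa and Gata4 with a factor, were chosen after the values were seen. Sequences came from RefSeq, and gene positions and untranslated regions from the GENCODE annotation of GRCm38. Alternatives varied the pseudocount, detection limit, clustering, cells and scaling.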

Additional observations from a re-analysis of the deposited data

How the results depend on the processing

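No paired analysis was possible because replicate numbers stand for single cells here, and nothing was tested. Leaving out a replicate was not possible either, with 1 sample per genotype. Of 55 differences of a member between genotypes under alternative settings, 54 kept their sign, the exception being Tbx20 at -0.20 with clusters of the most variable genes. All 40 differences between classes kept theirs. Tbx5 between genotypes fell below 1 log2 unit with a pseudocount of 10 (0.63), clusters of variable genes (0.86), the mean of the within-batch differences (0.66), mitochondrially encoded genes left out (0.98) and cells over 20% mitochondrial TPM left out (0.82, an alternative added after seeing the data). Tbx20 passed it with all cells of each genotype (1.44) and with 4 clusters (1.14), and as a log2 ratio of mean TPM so did Isl1 (3.87) and Tbx2 (1.00, with opposite signs in the batches on the main scale). Tbx20 was 0.24 both with cells of at least 6000 genes and without cells over 20% mitochondrial TPM. Between classes, a pseudocount of 10 gave 0.83 for Tbx5 and 0.63 for Tbx20, and against endothelial-like cells alone Tbx20 was 0.87. As a log2 ratio of mean TPM the class differences were 3.41 for Tbx5, 0.52 for Tbx20, 2.91 for Tbx2, 1.72 for Tbx3 and -3.40 for Isl1, and a pseudocount of 0.1 gave 1.08 for Tbx3. Chamber and non-chamber factors met in 48.3% of control and 67.6% of cKO CM-like cells at any TPM above 0, and in 17.2% and 23.5% at a TPM of at least 10. Genes called higher in cKO cells numbered 343 with a pseudocount of 10 and 195 with a limit of 2 log2 units, and genes called lower 151 and 80. The cause of these shifts was not tested. The table gives no read counts, so a listed 0 may be a transcript that was not sampled.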
